A study of Vitis vinifera with 40 samples.

Results

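Cotyledonary 2 embryos (C2) of grapevine were compared with seedlings that had formed an epicotyl (EP). The comparison rests on 10 of the 40 libraries of the series, taken by their stage labels, with 5 replicate libraries of C2 and 5 of EP. Both stages came from *Vitis vinifera* cultivar Malvasia Istriana, regenerated by somatic embryogenesis from anther cultures, and both grew in long day. C2 stood on hormone-free medium, whereas the labels place EP on gibberellin, and the study's methods give a germination medium that held the auxin IAA as well as gibberellin. Developmental stage, age and medium changed together between these groups and cannot be told apart. Each library was made from a pool of whole embryos or seedlings, and the labels give the tissue as somatic embryos in both stages.

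Somatic embryogenesis forms an embryo from vegetative cells without fertilization. A cotyledonary embryo carries seed leaves and stored reserves, and germination turns it into a seedling that lives on its own photosynthesis. The epicotyl is the stem above the cotyledons, and its outgrowth starts the leafy shoot. Gibberellins promote germination and stem growth by triggering the breakdown of DELLA proteins, whereas abscisic acid holds back germination.

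The libraries differed in depth and in composition. Total counts lay between 18125988 and 30759636 in C2 and between 13774534 and 68058022 in EP. EP replicates 1, 2 and 3 stood apart from EP replicates 4 and 5. The 10 most abundant genes of a library held 53.8%, 55.1% and 54.5% of the counts in the first 3 and 24.2% and 15.6% in the other 2, against 26.4 to 39.2% in C2. The stage means did not differ beyond this spread (EP minus C2, 7.37 percentage points, exact two-sided permutation test, p = 0.46, n = 5 per stage). Spearman's rho over genes was 0.930 to 0.995 within C2, 0.853 to 0.987 within EP and 0.693 to 0.775 between the stages, as a description of libraries that share all their genes. Within each stage the closest pairs were replicates 1 and 2 (0.995 in C2, 0.987 in EP) and replicates 4 and 5 (0.985 and 0.978). The tests counted all 5 libraries of a stage as separate replicates. Because of the split in EP, its groups were also compared with C2 one at a time. A call that was lost is named beside its gene.

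Much of this share came from 3 genes without a name in the sources used here, chosen after their values were seen because each held at least 5% of the counts of a library. VIT_13s0019g02630 held 26.4%, 22.9%, 19.9%, 14.2% and 8.98% of the counts in EP replicates 1 to 5. In C2 its share was 1.05%, 1.06%, 1.44%, 0.421% and 0.394%. The groups did not overlap, and the gene was higher in EP by 5.12 on the log2 scale (edgeR quasi-likelihood test with Benjamini-Hochberg adjustment, as for every adjusted p below, adjusted p = 0.010). VIT_10s0003g04500 held 12.4 to 20.8% in C2 and 1.41 to 13.9% in EP, and VIT_12s0028g01130 held 5.6 to 8.52% in C2 and 0.868 to 6.59% in EP. In these shares both were low in EP replicates 4 and 5 and overlapped C2 through EP replicate 3. The test used counts scaled for composition, as described below, and called neither (-0.26 and -0.16 on the log2 scale, adjusted p = 0.88 and 0.91). That scaling places EP replicates 1, 2 and 3 higher relative to C2 than the shares do.

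**Figure D1:**
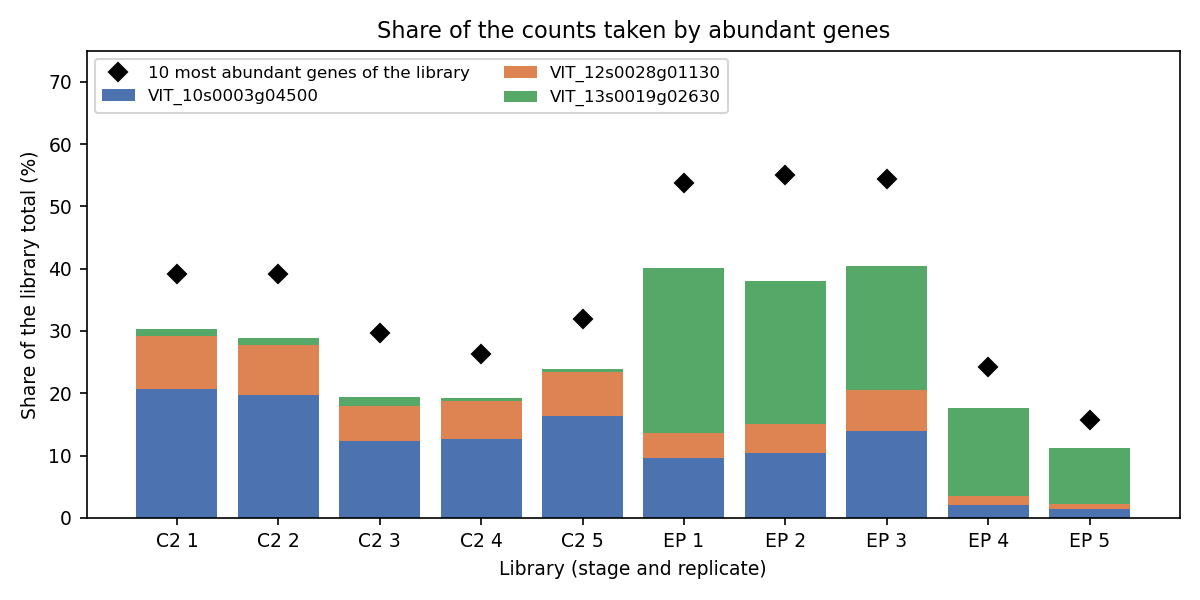
Share of each library's counts (y axis, %) taken by 3 abundant genes (stacked bars) and by its 10 most abundant genes (diamonds) in the 5 C2 and 5 EP libraries. VIT_13s0019g02630 took 8.98 to 26.4% in EP and 0.394 to 1.44% in C2, and the 10 most abundant genes took the smallest shares in EP replicates 4 and 5, 24.2% and 15.6%.

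Because these genes weigh so heavily, levels are given as normalized CPM, the count relative to the library total after TMM scaling, which corrects the total for composition. Of 21414 genes tested, 11075 were called at an adjusted p below 0.05 (51.7%). Of these, 5732 were higher in EP (26.8% of the genes tested) and 5343 were lower (25%). The median difference over all genes tested was -0.04 on the log2 scale (EP minus C2). A difference past 2-fold in its own test (edgeR's glmTreat) was found for 4881 genes (22.8%), of which 2890 were higher (13.5%) and 1991 lower in EP (9.3%). Fitted changes over 10-fold were found for 1046 called genes in the direction of EP and for 560 in the direction of C2. Without EP replicates 4 and 5 the test called 12350 genes, and without EP replicates 1, 2 and 3 it called 12677. With library totals in place of TMM scaling it called 6976 genes, and the balance turned to 3104 higher and 3872 lower in EP. Replicates 1 and 2, and 4 and 5, were the closest libraries of each stage. With each of these pairs summed, so that fewer units entered a stage, the test called 6730 genes.

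More genes were detected in C2. After all libraries were thinned to 13774534 counts, at least 1 read was counted on 26453, 26320, 28885, 25252 and 25440 genes in C2 and on 23784, 23742, 23842, 24817 and 25084 genes in EP. Every C2 library lay above every EP library, and the stage means differed by -2216 genes (EP minus C2, exact two-sided permutation test, p = 0.00794, the smallest p that 5 against 5 libraries allow). Thinning evened out the totals but not the composition. The 10 most abundant genes held 53.8%, 55.1% and 54.5% of the counts in EP replicates 1, 2 and 3. The share was 24.2% and 15.6% in EP replicates 4 and 5 and 26.4 to 39.2% in C2. EP replicates 4 and 5 (24817 and 25084 genes) came close to C2 replicates 4 and 5 (25252 and 25440). C2 replicate 3 was the highest, with 28885 genes. The part of composition in the difference was not tested. Of all 29971 genes counted, 192 had no count in any EP library but counts in every C2 library, and 2 had the opposite, all with a mean below 10 normalized CPM. For the 192 genes, the absence of counts over the 5 EP libraries allows a level of up to 0.0132 normalized CPM (3 counts over the stage, for counting error only).

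Names for 45 genes come from the study, which pairs them with identifiers, and 44 of them passed the filter on low counts. Of these, 16 were called higher in EP, 12 lower and 16 not called, with a median of 0.07 on the log2 scale against -0.04 for all genes tested. The share called higher was 36.4% and the share called lower 27.3%, beside 26.8% and 25% of all genes tested. The libraries of C2 and EP did not overlap for 23 of the 44 genes, all of them called, beside 40.1% of all genes tested. The groups described below are small, with 7 named genes or fewer in each. A change past 2-fold in its own test was found for 8 genes that rose and 3 that fell.

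**Figure D2:**
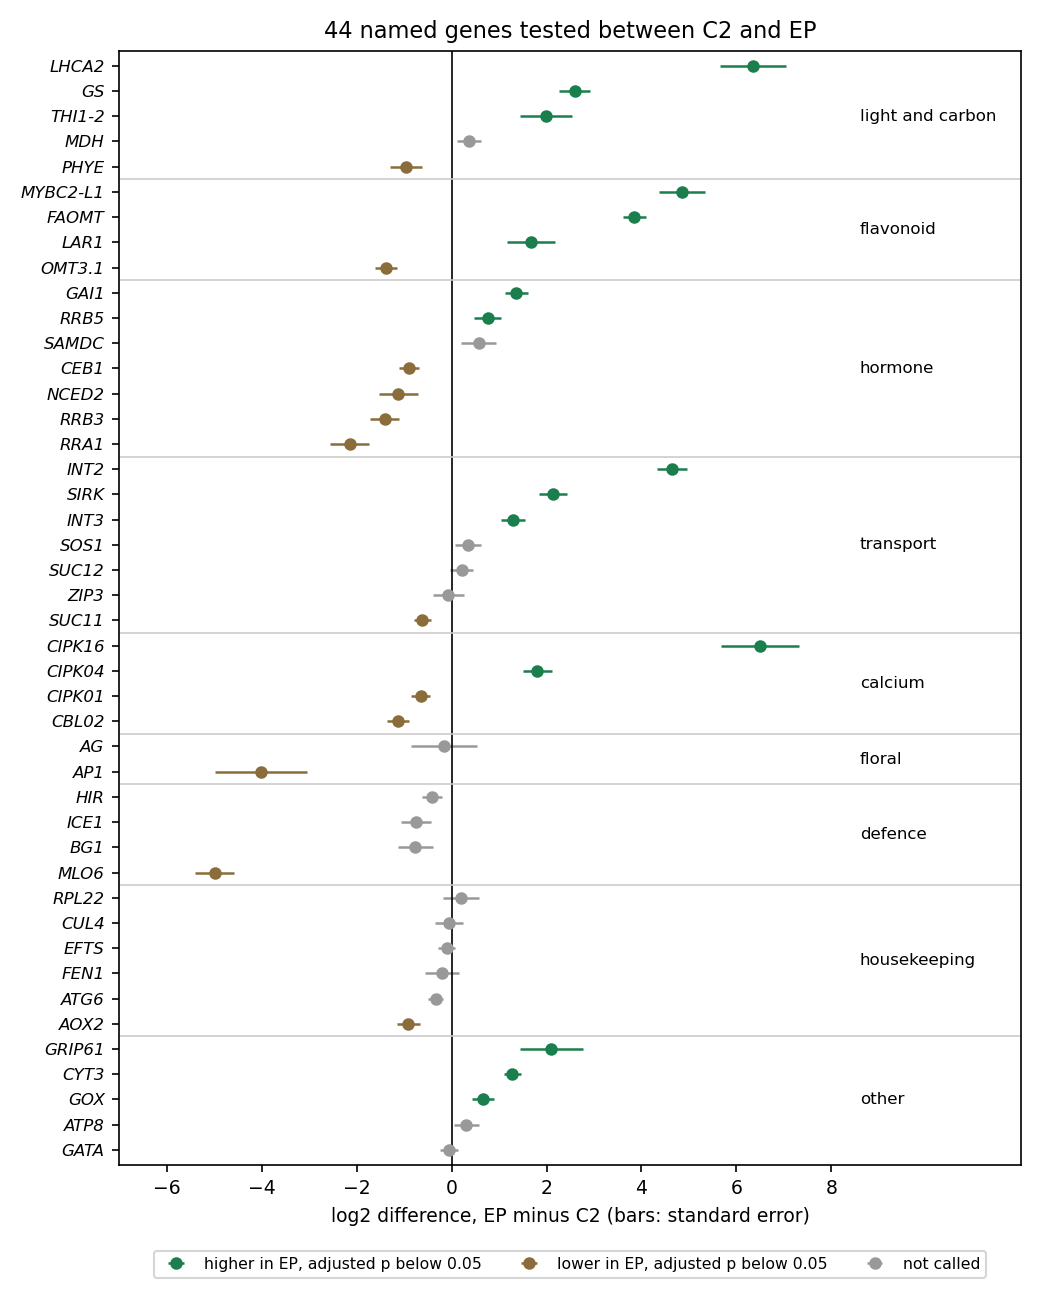
Difference between EP and C2 on the log2 scale (x axis, points) with its standard error (bars) for the 44 named genes tested, grouped by role. Points to the right were higher in EP, from 0.67 for *GOX* to 6.49 for *CIPK16* among the genes called, and points to the left lower in EP, down to -4.99 for *MLO6*.

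Of 5 named genes of light use and of carbon and nitrogen assimilation, 3 were higher in EP and 1 was lower, beside 26.8% and 25% of all genes tested. *LHCA2* (VIT_01s0010g03620), which encodes a light-harvesting protein of photosystem I and was the only marker of photosynthetic tissue with a name here, was at 7.87, 6.51, 9.35, 1.22 and 0.821 normalized CPM in C2 replicates 1 to 5. In EP it was at 429, 439, 435, 438 and 362 normalized CPM. All EP libraries lay far above all C2 libraries, and in C2 replicates 4 and 5 were the lowest. The gene rose by 6.36 ± 0.70 (SE) on the log2 scale, which is 81.9-fold (adjusted p = 2.3e-05). A larger share of cells with chloroplasts and more of this RNA per cell cannot be told apart in pooled plant material, and the same holds for every gene below.

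*GS*, named for glutamine synthetase, which fixes ammonium into glutamine, was at 22.2, 21.9, 18.7, 14.8 and 16.7 normalized CPM in C2 and at 170, 174, 91.0, 67.9 and 66.2 in EP. The groups did not overlap, with EP replicates 1 and 2 highest, and it rose 6.03-fold (2.59 ± 0.32 on the log2 scale, adjusted p = 5.5e-05). *THI1-2*, a gene of thiamine synthesis, was at 0.71 to 3.20 normalized CPM in C2. Its values in EP were 9.77, 10.7, 9.12, 4.28 and 1.69, so that EP replicate 5 lay within the range of C2. The gene rose 3.97-fold (adjusted p = 0.0094), but not with EP replicates 4 and 5 alone (0.84 on the log2 scale, adjusted p = 0.24). *PHYE*, a phytochrome that senses red and far-red light, went the other way, with 22.7, 21.9, 27.6, 37.5 and 30.9 normalized CPM in C2 and 7.58, 7.99, 11.9, 18.7 and 25.3 in EP. Only EP replicate 5 reached the range of C2. *PHYE* fell by 0.96 ± 0.33 on the log2 scale (adjusted p = 0.029), and the call was lost without C2 replicate 4 or 5 or without EP replicate 1, 2 or 3 (adjusted p = 0.067, 0.054, 0.074, 0.075 and 0.077) and with EP replicates 4 and 5 alone (-0.30, adjusted p = 0.34). *MDH*, for malate dehydrogenase, was at 74.1 to 122 normalized CPM in C2 and 81.4 to 164 in EP and was not called (adjusted p = 0.23).

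**Figure D3:**
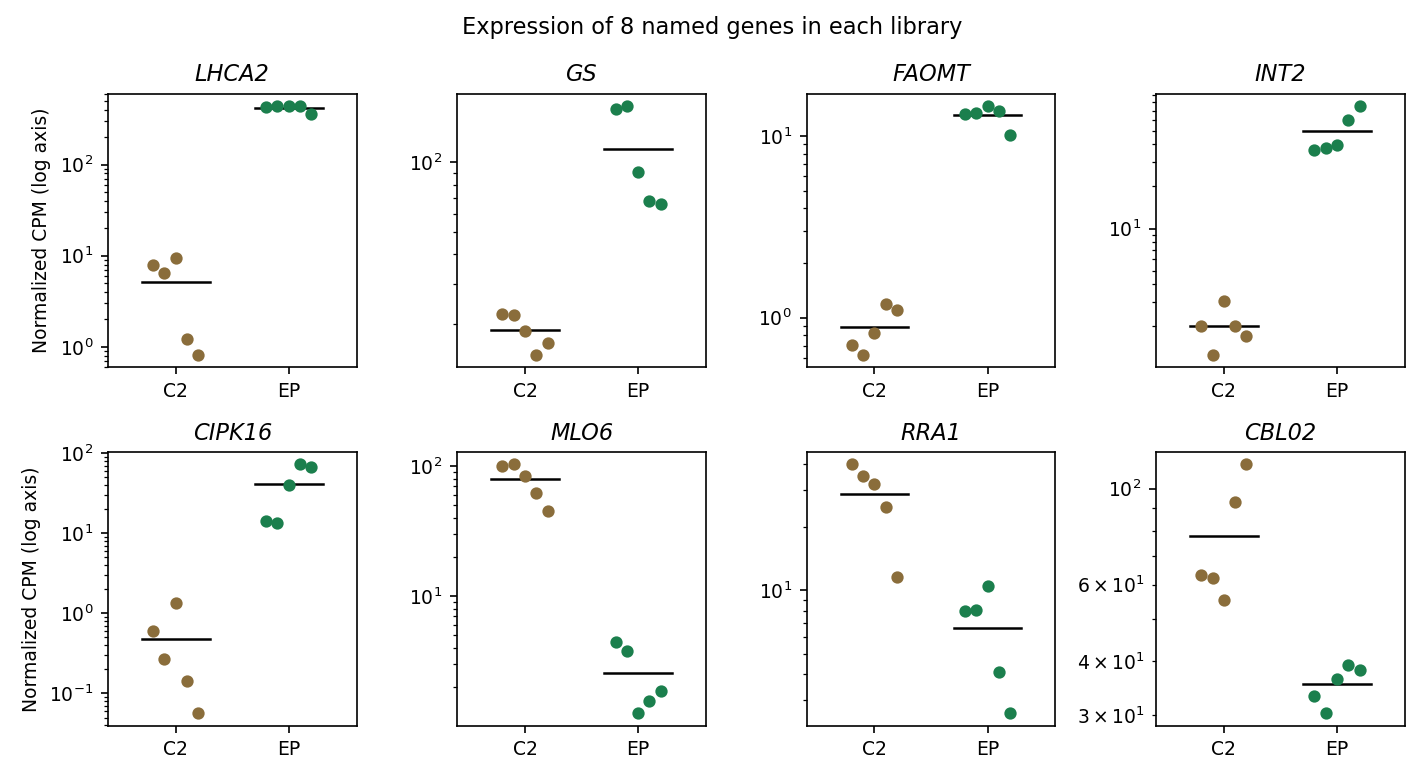
Normalized CPM (y axis, log scale) of 8 named genes in each of the 5 C2 and 5 EP libraries (points, replicates 1 to 5 from left to right), with the stage mean (line). In all 8 genes the libraries of the stages did not overlap, with *LHCA2* at 0.821 to 9.35 in C2 and 362 to 439 in EP and *MLO6* at 45.1 to 103 in C2 and 1.25 to 4.39 in EP.

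All 4 named genes grouped under flavonoid metabolism were called, beside 51.7% of all genes tested, with 3 of them higher in EP. *FAOMT*, an O-methyltransferase acting on anthocyanins, was at 0.704, 0.624, 0.822, 1.19 and 1.10 normalized CPM in C2 and 13.2, 13.3, 14.6, 13.7 and 10.1 in EP. These libraries agreed closely within each stage, and the gene rose 14.4-fold (3.85 ± 0.24 on the log2 scale, adjusted p = 1.0e-06). *MYBC2-L1*, a MYB repressor of flavonoid synthesis, was close to absent in C2, with 0.101, 0.0446, 0.260, 0.0852 and 0.0566 normalized CPM, and was at 2.29, 1.70, 3.50, 3.93 and 4.06 in EP. It rose 28.9-fold (4.85 ± 0.49, adjusted p = 1.3e-05).

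*LAR1*, for leucoanthocyanidin reductase of the proanthocyanidin branch, was at 12.9, 14.1, 9.95, 3.41 and 3.88 normalized CPM in C2. In EP it was at 14.9, 14.3, 16.2, 52.4 and 41.9, with EP replicates 4 and 5 well above the other 3, which lay only just above C2 replicates 1 and 2. *LAR1* rose by 1.68 ± 0.51 on the log2 scale (adjusted p = 0.016), but not without EP replicates 4 and 5 (0.80, adjusted p = 0.15). *OMT3.1* fell from 8.74 to 15.4 normalized CPM in C2 to 2.79 to 5.00 in EP, a 2.61-fold decrease with no overlap (adjusted p = 4.3e-04).

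Among hormone genes, 2 of 7 rose and 4 fell, beside 26.8% and 25% of all genes tested. *GAI1*, the grapevine DELLA repressor of gibberellin responses, was at 22.3, 20.8, 12.4, 14.8 and 11.3 normalized CPM in C2 and at 51.4, 49.4, 45, 33.8 and 30.6 in EP. Every EP library lay above every C2 library, and the transcript rose 2.57-fold (1.36 ± 0.24 on the log2 scale, adjusted p = 6.4e-04). *NCED2*, of the enzyme family that sets the rate of abscisic acid synthesis, was at 19.7, 20.2, 11.6, 7.69 and 3.57 normalized CPM in C2. In EP it was at 4.64 to 7.15, and C2 replicate 5 lay below all EP libraries. Its decrease of 1.12 ± 0.40 on the log2 scale (adjusted p = 0.035) depended on single libraries, since it was no longer called without C2 replicate 1 or 2 or without EP replicate 1, 2, 3 or 4 (adjusted p = 0.095, 0.098, 0.070, 0.067, 0.056 and 0.074) and without EP replicates 4 and 5 together (adjusted p = 0.084) or 1, 2 and 3 together (0.18).

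The cytokinin response regulators went in different directions. *RRA1*, of the type-A class that dampens cytokinin signalling, fell from 39.8, 34.9, 32.2, 25.1 and 11.6 normalized CPM in C2 to 7.98, 8.11, 10.5, 4.07 and 2.60 in EP. The ranges came close between C2 replicate 5 and EP replicate 3 without overlap, and the decrease was 4.43-fold (-2.15 ± 0.42 on the log2 scale, adjusted p = 0.0012). *RRB3*, of the type-B class that activates transcription, was at 23.6 to 49.2 normalized CPM in C2 and 5.87 to 16.5 in EP and fell 2.66-fold (adjusted p = 0.0024). *RRB5*, of the same class, was at 3.06 to 4.07 in C2 and 4.0 to 9.88 in EP, with EP replicates 4 and 5 highest at 7.48 and 9.88. It rose 1.69-fold (adjusted p = 0.041), and this call was lost without any single C2 library or without EP replicate 4 or 5 (adjusted p = 0.055 to 0.11) and without both (adjusted p = 0.35). *CEB1*, a transcription factor of cell expansion, fell 1.85-fold without overlap (adjusted p = 0.0044). *SAMDC*, of polyamine synthesis, was at 64.2 to 185 in C2 and 89.3 to 278 in EP and was not called (adjusted p = 0.23), except with EP replicates 4 and 5 alone (1.13 on the log2 scale, adjusted p = 0.046).

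Of 7 transporter and channel genes, 3 rose and 1 fell, beside 26.8% and 25% of all genes tested, and 3 were not called. The inositol transporter *INT2* was at 2.01, 1.25, 3.03, 2.02 and 1.70 normalized CPM in C2 and 36.4, 37.4, 39.5, 60.0 and 75.5 in EP. It rose 24.9-fold (4.64 ± 0.32 on the log2 scale, adjusted p = 1.3e-06), whereas *INT3* of the same family rose 2.45-fold (1.29 ± 0.26, adjusted p = 0.0014). *SIRK*, a potassium channel described in grapevine guard cells, was at 1.84, 1.78, 1.90, 2.38 and 1.76 normalized CPM in C2 and 7.58, 4.36, 6.0, 12.1 and 11.9 in EP. The groups did not overlap and the rise was 4.39-fold (adjusted p = 1.3e-04).

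Of the sucrose transporters, *SUC11* was called and *SUC12* was not. *SUC11* fell 1.53-fold from 11.7 to 18.6 normalized CPM in C2 to 8.19 to 11.5 in EP (adjusted p = 0.015), with the call lost without EP replicates 4 and 5 (adjusted p = 0.056). *SUC12* was at 19.1 to 21.5 in C2. In EP it was above this range in replicates 1, 2 and 3 (33.5, 31.1 and 26.0) and below it in replicates 4 and 5 (13.2 and 16.4), and over all libraries it was not called (0.21 on the log2 scale, adjusted p = 0.50). Without EP replicates 4 and 5 it was called higher in EP (0.56, adjusted p = 0.0059), and with EP replicates 4 and 5 alone its value was negative and not called (-0.42, adjusted p = 0.052). The zinc transporter *ZIP3* was at 9.98 to 15.3 in C2 and at 11.5, 12.4, 21.1, 5.32 and 7.06 in EP, above the range of C2 in replicate 3 and below it in replicates 4 and 5, and was not called (adjusted p = 0.87) except as lower in EP replicates 4 and 5 alone (-0.89, adjusted p = 0.015). *SOS1*, a sodium/proton antiporter, was at 54.2, 51.0, 107, 41.4 and 41.0 in C2 and 55.4 to 83.6 in EP. C2 replicate 3 was the highest of all libraries, and the gene was called higher in EP only without it (adjusted p = 0.32 with and 0.017 without it).

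All 4 named genes of the calcium-sensing CBL and CIPK families were called, beside 51.7% of all genes tested, with 2 in each direction. *CIPK16* (VIT_10s0003g01410), a protein kinase that works with CBL calcium sensors and carries the annotation response to abscisic acid, was at 0.603, 0.267, 1.34, 0.142 and 0.0566 normalized CPM in C2 and 14.3, 13.4, 40.1, 72.3 and 66.9 in EP. The EP libraries spread over a wide range but all lay above C2, and this was the largest rise among the named genes (90.0-fold, 6.49 ± 0.82 on the log2 scale, adjusted p = 6.3e-05). *CIPK04* rose 3.49-fold, from 9.91 to 14.8 in C2 to 22.9 to 66.7 in EP (adjusted p = 4.5e-04). The calcium sensor *CBL02* fell from 63.2, 62.2, 55.4, 93.1 and 114 in C2 to 33.2, 30.3, 36.4, 39.1 and 38.2 in EP, 2.19-fold and without overlap (adjusted p = 0.0013). *CIPK01* fell 1.57-fold (adjusted p = 0.017), with overlap between C2 replicate 3 at 9.43 and EP replicate 2 at 9.45, and the call was lost without EP replicates 4 and 5 (adjusted p = 0.061).

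Transcripts of the floral MADS-box genes were low in both stages. *AP1*, which specifies floral meristems, was at 1.14, 1.16, 7.18, 0.426 and 0.538 normalized CPM in C2 and at 0.0997, 0.363, 0, 0.0557 and 0.163 in EP. C2 replicate 3 stood far above the other C2 libraries. *AP1* fell by 4.01 ± 0.97 on the log2 scale (adjusted p = 0.0046) and by 2.67 without C2 replicate 3 (adjusted p = 0.0041). The same library was the highest for *MADS4*, at 3.89 against 0.199 to 0.737 in the other C2 libraries and 0.0544 to 0.299 in EP, and this gene did not pass the filter on low counts. *AG*, the carpel and stamen identity gene, was at 0.0568 to 1.56 in C2 and 0.0997 to 1.12 in EP and was not called (adjusted p = 0.86).

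Of the genes grouped under defence and stress, 1 of 4 was called, beside 51.7% of all genes tested. *MLO6*, of a family of membrane proteins in which some members are needed for powdery mildew infection, was at 100, 103, 83.9, 62.0 and 45.1 normalized CPM in C2 and 4.39, 3.75, 1.25, 1.56 and 1.84 in EP. It showed the largest decrease among the named genes, 31.8-fold, with no overlap between the stages (-4.99 ± 0.41 on the log2 scale, adjusted p = 3.9e-06). *ICE1*, a transcription factor of cold responses, was at 19.3 to 42.2 in C2 and 9.18 to 26.5 in EP and missed the threshold (-0.75, adjusted p = 0.063), which it passed without C2 replicate 3 (adjusted p = 0.045), without EP replicate 4 (0.021) and without EP replicates 4 and 5 (0.0074). *BG1* and *HIR* were not called (adjusted p = 0.11 for each), but *HIR* was called lower in EP in 1 of 20 alternatives (adjusted p = 0.012).

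Of 6 genes of basic cell functions, 1 was called, beside 51.7% of all genes tested. *EFTS*, for a translation elongation factor, was at 11.4 to 14.9 normalized CPM in C2 and 9.5 to 14.8 in EP (-0.10 ± 0.17 on the log2 scale). *RPL22*, *FEN1*, *CUL4* and *ATG6* had values between -0.34 and 0.20 on the log2 scale and were not called. *ATG6* was called lower in EP in 1 of 20 alternatives (adjusted p = 0.029). *CUL4* passed the threshold as lower in EP without EP replicates 4 and 5 (-0.66, adjusted p = 0.0087) and as higher in EP without EP replicates 1, 2 and 3 (0.60, adjusted p = 0.027). *AOX2*, the alternative oxidase of mitochondria, fell from 19.5 to 40.2 in C2 to 9.97 to 17.3 in EP, 1.88-fold and without overlap (adjusted p = 0.0079), and was not called with EP replicates 4 and 5 alone (adjusted p = 0.14). Of the other named genes, *CYT3* rose 2.43-fold (adjusted p = 1.6e-04), from 25.3 to 44.8 normalized CPM in C2 to 74.8 to 91.3 in EP. *GRIP61* rose 4.29-fold (adjusted p = 0.020), with no overlap, and was not called with EP replicates 4 and 5 alone (adjusted p = 0.091). *GOX* rose 1.59-fold (adjusted p = 0.029), a call that was lost without C2 replicate 1, 2, 3 or 4 or without EP replicate 3 or 4 (adjusted p = 0.054 to 0.075). *ATP8* and *GATA* were not called (adjusted p = 0.34 and 0.85), but *ATP8* was called higher in EP in 1 of 20 alternatives (adjusted p = 0.013).

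Annotation terms were at hand for part of the genes only, so the following lists hold a part of each category. Not all of the 21 lists are described. The single genes given from them were chosen by their fitted change among called genes whose libraries did not overlap. For these genes the call and the separation of the stages therefore follow from the choice and are given as a description. In 15 tested genes of the chloroplast thylakoid membrane, 10 were higher in EP and 2 lower, with a median of 0.92 on the log2 scale against -0.04 for all genes tested. These shares were 66.7% and 13.3%, beside 26.8% and 25% of all genes tested. In 33 genes of the chloroplast stroma, 14 were higher and 5 lower (median 0.41), and in 98 genes of the chloroplast as a whole 38 were higher and 19 lower (median 0.23). VIT_18s0164g00030, annotated to both the stroma and the thylakoid membrane, was at 6.30, 5.97, 4.20, 3.97 and 3.54 normalized CPM in C2 and 19.2, 19.5, 37.5, 73.2 and 50.9 in EP. It was higher in every EP library and rose 8.39-fold (adjusted p = 6.4e-05). VIT_16s0098g01230 of the thylakoid list went the other way, from 296 to 516 in C2 to 65.8 to 248 in EP, and fell 2.42-fold (adjusted p = 0.014). The summed levels over all members of these lists, in which abundant genes weigh most, overlapped between the stages, with 442 to 660 normalized CPM in C2 and 431 to 579 in EP for the thylakoid membrane and 3445 to 4093 and 3337 to 6552 for the chloroplast. With library totals in place of TMM scaling, 4 thylakoid, 4 stroma and 16 chloroplast genes were called higher.

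Of 21 genes annotated as structural constituents of the ribosome, 10 were lower in EP (47.6%, beside 25% of all genes tested) and 1 was higher (median -0.63). Of 35 translation genes 14 were lower (40%) and 5 higher (median -0.36). VIT_12s0034g01000, which carries both terms, was at 57.8, 60.1, 55.6, 68.4 and 65.0 normalized CPM in C2 and 15.2, 19.0, 21.9, 23.6 and 17.8 in EP. The libraries varied little within each stage, and the gene fell 3.15-fold (adjusted p = 1.4e-05). In DNA replication 5 of 12 genes were lower and 1 higher (median -0.47), while the summed level of the list was 655 to 848 normalized CPM in C2 and 695 to 1522 in EP. In the cell cycle list 11 of 35 were lower (31.4%, near the 25% of all genes tested) and 4 higher (median -0.37). Its summed level was higher in every EP library (606 to 630 normalized CPM) than in any C2 library (462 to 520). This separation depends on the TMM factors, which were 0.581, 0.532, 0.581, 1.495 and 1.896 in EP replicates 1 to 5 and 0.972 to 1.334 in C2. Without the factors, EP replicates 1, 2 and 3 fall below all C2 libraries in this sum. The mitochondrion list had 30 of 91 genes lower (33.0%) and 14 higher, with a median of -0.11 that lay close to the -0.04 of all genes tested. With EP replicates 4 and 5 alone, 22 mitochondrion genes were called higher. With library totals, 6 translation, 3 DNA replication, 7 cell cycle and 15 mitochondrion genes were called lower.

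**Figure D4:**
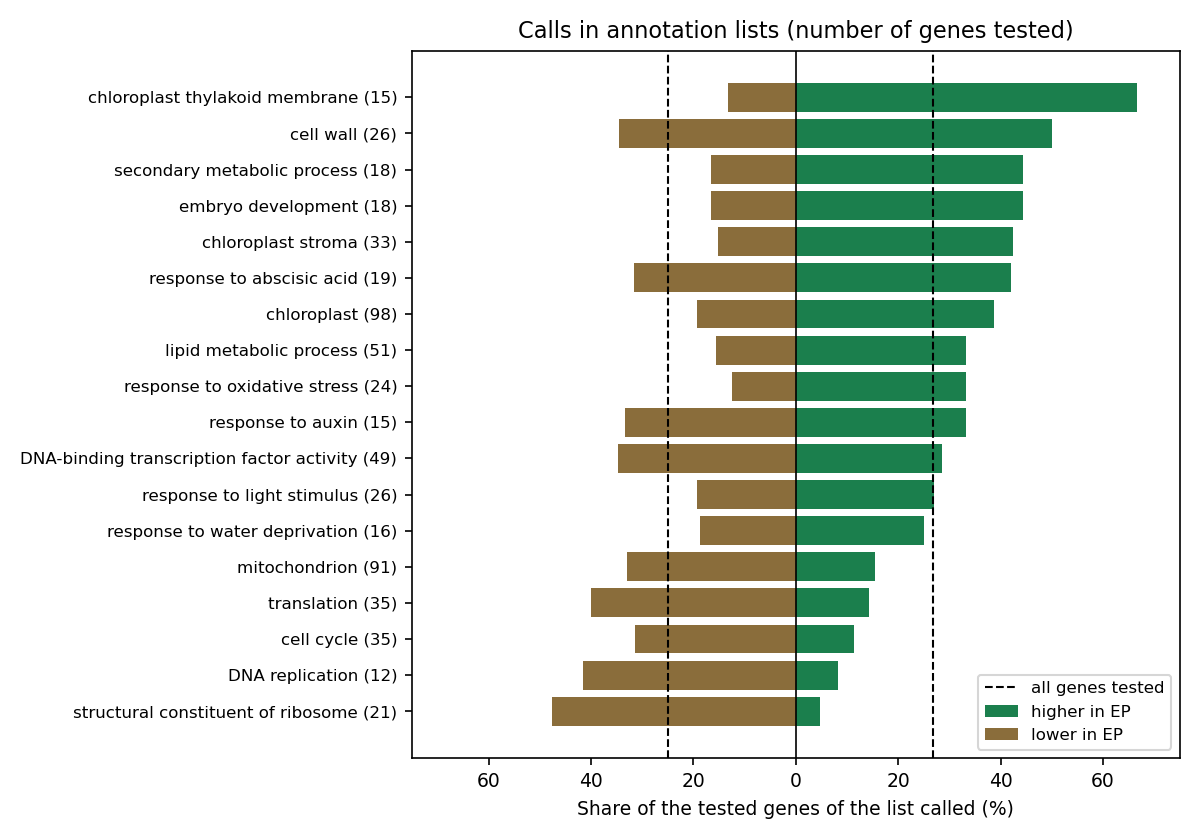
Share of the tested genes of each annotation list (x axis, %) called higher in EP (bars to the right) or lower (bars to the left), with the number of genes tested in parentheses and the shares over all genes tested, 26.8% and 25%, as dashed lines. Chloroplast thylakoid membrane had the largest share of genes higher in EP (66.7%) and structural constituent of ribosome the largest share lower (47.6%), and lists with fewer than 12 tested genes are left out.

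The cell wall list split in both directions (median 0.70). Of its 26 genes, 13 were higher in EP (50%) and 9 lower (34.6%), beside 26.8% and 25% of all genes tested. VIT_16s0098g01910 rose from 0.637, 0.134, 0.433, 0.142 and 0.0850 normalized CPM in C2 to 21.0, 18.7, 9.62, 5.16 and 2.70 in EP. It was higher in all EP libraries, most in replicates 1 and 2 (39.6-fold, adjusted p = 1.0e-04). VIT_18s0001g01130 of the same list fell 9.20-fold, from 16.1 to 46.3 in C2 to 1.30 to 6.92 in EP (adjusted p = 2.7e-04). Secondary metabolism had 8 of 18 genes higher (44.4%) and 3 lower (16.7%), with a median of 1.02. The largest decrease of any annotated gene examined was in this list, with VIT_13s0064g01760 at 17.3, 17.1, 15.7, 41.1 and 57.8 in C2 and 0.199, 0, 0.250, 0.0139 and 0.0544 in EP, and its fitted difference of -8.92 on the log2 scale (adjusted p = 3.6e-06) depends on these few counts in EP.

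Lipid metabolism held genes with large changes of opposite sign among 51 tested (median -0.01). Of these, 17 were higher (33.3%) and 8 lower (15.7%), beside 26.8% and 25% of all genes tested. VIT_09s0002g02450 fell 50.0-fold, from 332, 332, 528, 168 and 43.8 normalized CPM in C2 to 6.18, 8.24, 3.12, 5.24 and 5.35 in EP (adjusted p = 2.3e-05). C2 replicates 4 and 5 were lower than the other C2 libraries but above all EP libraries. VIT_11s0065g00130 rose 88.1-fold, from 0.0852 to 0.822 in C2 to 6.37 to 50.7 in EP (adjusted p = 2.3e-05). In the embryo development list 8 of 18 genes were higher in EP (44.4%) and 3 lower (16.7%, median 0.21). For response to light stimulus 7 of 26 were higher (26.9%) and 5 lower (19.2%, median -0.06), near the shares of all genes tested.

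The lists of hormone responses were small, and their counts stand beside 26.8% higher and 25% lower of all genes tested. For gibberellin 3 genes were tested and 1 rose, VIT_17s0000g06210, with 1.64, 1.87, 1.08, 0.738 and 0.708 normalized CPM in C2 and 36.0, 35.7, 107, 14.8 and 27.1 in EP. EP replicate 3 was the highest and the groups did not overlap (36.6-fold, adjusted p = 2.3e-05). For cytokinin 3 of 5 genes were higher and none was lower among those tested. VIT_07s0104g01260 of this list rose 31.4-fold, from 1.84 to 2.68 in C2 to 135, 131, 52.7, 15.9 and 11.8 in EP, with replicates 1 and 2 highest (adjusted p = 1.2e-04). For abscisic acid 8 of 19 genes were higher (42.1%) and 6 lower (31.6%), and for auxin 5 of 15 in each direction (33.3%). The auxin shares and the lower share for abscisic acid were near those of all genes tested. VIT_07s0031g01980 of the abscisic acid list fell 11.2-fold, from 18.3 to 33.8 in C2 to 1.16 to 3.79 in EP (adjusted p = 1.1e-05), and VIT_00s0772g00020 of the auxin list fell 5.68-fold, from 8.87 to 22.0 to 1.62 to 3.19 (adjusted p = 3.7e-05).

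Over all 21414 genes, those with the largest changes that had no name were chosen by their fitted change among genes with a mean of at least 10 normalized CPM in a stage and no overlap. VIT_00s0187g00230 was at 247, 263, 202, 335 and 430 normalized CPM in C2 and at 0.0997, 0.242, 0, 0.0279 and 0.0699 in EP, so that almost no transcript remained in any EP library (-12.08 ± 0.55 on the log2 scale, adjusted p = 4.8e-07). VIT_05s0077g01930 fell from 153 to 355 in C2 to 0 to 0.627 in EP (adjusted p = 9.7e-07). In the other direction VIT_00s0181g00180 was at 0.235, 0.178, 0.519, 0.0852 and 0.170 in C2 and at 242, 246, 133, 111 and 117 in EP (9.52 ± 0.53, adjusted p = 6.6e-07). VIT_00s0229g00130 rose from 0 to 0.216 in C2 to 10.6 to 182 in EP (adjusted p = 4.6e-05). For each of these genes 1 stage had hardly any counts, and the fitted change depends on them.

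The seedling stage S, which lies between C2 and EP in development and carries the same treatment label as EP and was sampled in 3 libraries, shows where the named genes stood on the way. These levels were scaled over all 40 libraries and are given as a description. *LHCA2* had a mean of 7.38 ± 5.32 normalized CPM (SD, n = 5) in C2, 74.2 ± 25.2 (n = 3) in S and 605 ± 49.0 (n = 5) in EP. *CIPK16* was still at 0.424 to 0.578 in S, within the range of C2 (0.089 to 1.71), and at 18.2 to 114 in EP. *INT2* was at 4.92 to 9.44 in S, above all C2 libraries (1.89 to 3.85) and below all EP libraries (49.8 to 117). *MLO6* was at 35.0 and 41.3 in S replicates 1 and 2, between C2 (70.9 to 156) and EP (1.72 to 6.0), and at 5.39 in S replicate 3, within the range of EP. Of the 16 named genes called higher in EP, the mean of S lay between C2 and EP for 10, above both for 3 and below both for 3, and of the 12 called lower it lay between them for 8, above both for 2 and below both for 2. *GAI1* and *LAR1* were among those above both, with means of 62.7 and 46.3 in S and 59.9 and 41.9 in EP. For both genes the libraries of S and EP overlapped. *GAI1* was at 48.7 to 82.3 in S and 47.4 to 70.2 in EP, and *LAR1* at 38.5 to 50.7 and 19.3 to 82.5.

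**Figure D5:**
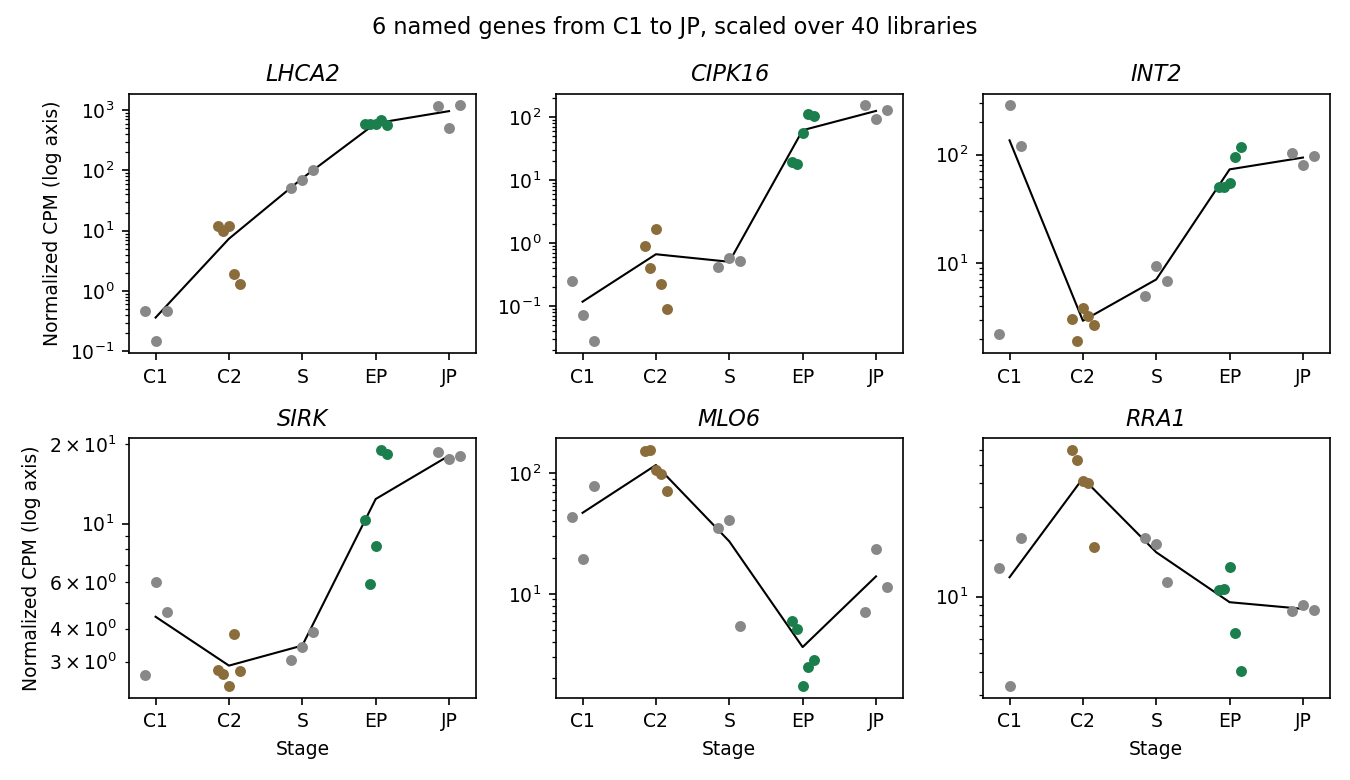
Normalized CPM (y axis, log scale, scaled over 40 libraries) of 6 named genes in each library (points) of C1, C2, S, EP and JP, with stage means joined by lines (C1 dark-grown cotyledonary embryos, S seedlings, JP juvenile plants). The mean of *LHCA2* was higher at each step, with 7.38 in C2, 74.2 in S and 605 in EP, but JP replicate 2 (499) lay below all EP libraries (559 to 689). *CIPK16* was at 0.424 to 0.578 in S and 18.2 to 114 in EP.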

How the data were processed

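Total RNA from pools of embryos or seedlings was depleted of rRNA and sequenced paired-end, and the authors mapped the reads with BBMap to the 12X grapevine assembly and deposited whole-number counts of reads per gene without normalization. The submitters' processing notes also list FastQC 0.11.7, SAMtools 1.11 and R 4.0.4. Whether counting used the strand, and how it handled reads from gene families and overlapping genes, was not given in the sources used. Libraries were assigned by their labels, and 0 columns of other samples were set aside.

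Counts of the 5 C2 and 5 EP libraries were compared with edgeR 4.0.16 in R 4.3.3 by the quasi-likelihood test. Genes passed filterByExpr, totals were scaled by TMM, and p-values were adjusted after Benjamini-Hochberg over all 21414 genes, with a threshold of 0.05. A second test, glmTreat, was made against 2-fold. Standard errors are the fitted change divided by the square root of F. Alternatives used DESeq2 1.42.0, other scalings, filters and sample sets. Tables and figures were made with Python 3.11.15, numpy 2.4.6, pandas 2.3.3 and matplotlib 3.10.9. The quasi-likelihood test was also run on simulated counts, in which few genes changed and no groups of replicates were built in. That run therefore does not measure its error rates in these data.

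Names come from the study, since 0 identifiers matched the RefSeq gene list of assembly ASM3070453v1. All 45 named genes are reported. Unnamed genes are the 2 with the largest change in each direction, and up to 1 per direction in each of 21 annotation lists, among genes called, with a mean of at least 10 normalized CPM in a stage and no overlap between libraries. Of the genes chosen from annotation lists, those described in the text were selected after their values were seen. The lists hold 511 distinct genes from the part of the annotation table at hand. Members, lists and tests were chosen with earlier results of these data known. Replicates are biological according to the study. Floors for genes without counts cover counting error only. Gene lengths were not used, so levels of different genes are not compared.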

Additional observations from a re-analysis of the deposited data

Results flagged for a closer look

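Among 160 sets of 5 libraries examined (each named or listed gene and 2 library measures in each stage), 13 held a library far from the other 4, or 8.13%. The rule flags about 1 in 20 by chance for independent, normally distributed values. These sets share the same 10 libraries and their values were not on a log scale, so an excess over chance cannot be read from the share. In C2, replicate 3 was high for *AP1* (7.18 normalized CPM against 0.426 to 1.16 in the other libraries), *MADS4* (3.89 against 0.199 to 0.737), *SOS1* (107 against 41.0 to 54.2), *OMT3.1* (15.4 against 8.74 to 9.62) and *MYBC2-L1* (0.260 against 0.0446 to 0.101). C2 replicate 4 was high for *SIRK* (2.38 against 1.76 to 1.90). C2 replicate 5 was high for *CIPK04* (14.8 against 9.91 to 10.6), VIT_14s0060g00450 of the cell cycle list (16.3 against 7.24 to 9.67) and VIT_05s0020g01340 of the embryo development list (13.2 against 10.3 to 11.1).

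In EP, replicate 5 was low for *LHCA2* (362 against 429 to 439) and high for VIT_18s0001g01130 of the cell wall list (6.92 against 1.30 to 2.62). EP replicate 3 was high for VIT_00s0229g00130 (182 against 10.6 to 57.6) and for VIT_17s0000g06210 of the gibberellin list (107 against 14.8 to 36.0). The cause of these values was not tested.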

How the results depend on the processing

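The count of genes called (11075) was 10043 to 11105 with any single library left out, with 5217 to 5777 higher and 4773 to 5387 lower in EP, and the count past 2-fold was 4496 to 5032. DESeq2 size factors, DESeq2's Wald test, no filter on low counts, one model of all 40 libraries and thinning gave 11057, 13533, 12771, 14532 and 9925 calls. The following 4 alternatives were chosen after seeing the data. Library totals without TMM factors gave 6976 calls (3104 higher, 3872 lower) and moved the median of all genes from -0.04 to -0.20 on the log2 scale. Summing replicates 1 and 2, and 4 and 5, of each stage gave 6730 calls (3713 higher, 3017 lower) and 3205 past 2-fold. Leaving out EP replicates 4 and 5, or 1, 2 and 3, gave 12350 and 12677 calls, with 0 and 2 genes called in the opposite direction. The cause of these shifts was not tested.

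Of the 28 named genes called, 13 were called in every alternative in which they were tested, and none changed sign. Library totals kept 14 of the 28 and summing kept 17. With library totals the calls of *RRB3*, *CEB1*, *INT3*, *CBL02* and *CYT3* were among those lost (adjusted p = 0.078, 0.064, 0.11, 0.053 and 0.067). Values near 0 of genes not called changed sign as follows. *SUC12* was at -0.22 with library totals and -0.42 with EP replicates 4 and 5 alone. *ZIP3* was at 0.34 without EP replicates 4 and 5, 0.16 with summed replicates and -0.41 to 0.12 with single libraries left out. *AG* was at 0.20 with the replicate number as a block, 0.0021 with EP replicates 4 and 5 alone, and -0.48 to 0.40 with single libraries left out. *RPL22* was at -0.41 without EP replicates 4 and 5 and -0.059 to 0.40 with single libraries left out. *FEN1* was at 0.33 after thinning and 0.14 with EP replicates 4 and 5 alone. *CUL4* was at 0.012 without a filter, 0.056 with library totals, 0.60 with EP replicates 4 and 5 alone and -0.32 to 0.11 with single libraries left out. *GATA* was at 0.16 and *ATP8* at -0.057 without EP replicates 4 and 5, and *GATA* at -0.14 to 0.054 with single libraries left out.

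With the replicate number as a block, 11096 genes were called (5535 higher, 5561 lower, 4881 past 2-fold), and 92.6% of the calls without the block were kept. Deviations of the libraries with the same number correlated at 0.27, 0.25, -0.06, 0.11 and 0.20 for replicates 1 to 5, and not every library correlated best with its own number, so the numbers were not taken to pair the libraries. The block ended the calls of *LAR1* (1.61, adjusted p = 0.089), *NCED2* (-0.89, adjusted p = 0.12), *RRB5* (0.66, adjusted p = 0.089) and *GOX* (0.64, adjusted p = 0.062). The difference in genes detected was -2521 to -1612 with single libraries left out and -2438 with the counts as deposited, and that in the share of abundant genes 3.77 to 13.6 percentage points, or 6.55 for the 50 most abundant genes. Depth limits genes with few counts, such as *AP1*, *AG* and *MADS4*.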
